A study of Drosophila melanogaster with 4 samples.

Results

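The vacuolar proton ATPase (V-ATPase) is a rotary pump that moves protons into lysosomes, endosomes and other compartments, and in some epithelia across the cell surface. Its peripheral V1 sector hydrolyses ATP and turns a central stalk. That stalk spins a proteolipid ring in the membrane-embedded V0 sector, and protons pass between the ring and subunit a. In the ovary the acidic compartments that the pump maintains serve the breakdown of endocytosed and autophagic cargo and the storage of yolk. In Drosophila most subunits are encoded by small gene families, and FlyBase names nearly all of these genes with the prefix Vha.

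Vha genes were taken as every gene whose FlyBase symbol starts with Vha, with no use of their measured values. Of the 33 such genes in the annotation, 32 were matched by identifier among the 17699 genes counted, and Vha44, which encodes subunit C, was not analysed here. A gene was called expressed when it had at least 20 counts in both input libraries. Of the 32 genes, 17 met that minimum and 15 did not, beside 7825 genes of the series that met it. All 17 expressed genes entered the test of polysome against input across 9038 genes, as did 3 of the 15 others.

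The data were polysome-seq libraries of Drosophila melanogaster ovaries, in which the RNA of the polysome fraction of a sucrose gradient was sequenced beside the RNA of the lysate kept as input. Each fraction had 2 libraries, labelled replicates 1 and 3. All 4 libraries came from flies with UAS-Dicer2;NosGAL4 driving bam RNAi and with a further hs-bam transgene, and ovaries were dissected 3 to 5 days after eclosion, following 37°C heat shocks of 2 h separated by 4 h of rest on each of 2 days. The nos driver acts in the germline, where knockdown of bam holds germ cells before differentiation and the heat-shock bam transgene then lets them enter cyst stages, so the ovaries were enriched for cysts. They held a mixture of cyst stages and also somatic cells, and no library of another genotype or without heat shock was compared here. TRIzol was used to extract the inputs whereas phenol-chloroform was used for the polysomes, which means that fraction and extraction cannot be told apart. Whether replicates 1 and 3 came from separate collections of flies is not stated, so the spread behind each p-value is that of these libraries alone and may be technical.

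The gene counts were 10646651 and 12298615 in inputs 1 and 3, and 19452659 and 22647905 in polysomes 1 and 3. The germline marker vas was present in all libraries, at 158 to 247 CPM (counts relative to the library total, scaled by TMM factors). The targeted gene bam was at 55.7 and 144 CPM in inputs 1 and 3 and at 77.6 and 34.5 CPM in polysomes 1 and 3, where knockdown and transgene are both present in every library. Polysome 3 stood apart in several marker lists. Among germline markers, orb was at 46.2, 87.3 and 58.8 CPM in inputs 1 and 3 and polysome 1 but at 194 CPM in polysome 3. From polysome 1 to polysome 3, aub (91.2 and 149 CPM) and Rbfox1 (57.0 and 81.0 CPM) were also higher, whereas bam was lower. The summed level of 8 muscle sheath genes was 20817, 27271 and 23367 CPM in inputs 1 and 3 and polysome 1 but 6487 CPM in polysome 3, and that of 12 eggshell and yolk genes was 5659, 5305 and 8888 CPM against 14932 CPM. Within these lists bt and sls of the muscle genes were higher in polysome 3 than in polysome 1. The eggshell and yolk sum of polysome 3 was raised by the chorion genes, such as Cp15 (2617 CPM, at most 4.76 CPM elsewhere) and Cp38 (1325 CPM, at most 46.7 CPM elsewhere), and by Vm34Ca, while Yp1, Yp2, Yp3 and Vm26Ab were lower in polysome 3 than in polysome 1. The 8 genes chosen for Malpighian tubule and gut, tissues in which the V-ATPase is abundant, summed to 4.86, 6.44 and 4.30 CPM against 98.9 CPM in polysome 3, with 5, 3, 6 and 3 of them at 0 in inputs 1 and 3 and polysomes 1 and 3. The sum of polysome 3 came from gut protease genes (Jon65Aiii at 64.3, betaTry at 19.0, alphaTry at 12.1 and Jon99Ci at 2.80 CPM), whereas the tubule genes Uro and salt were at 0 there and Irk2 was at 0.658 CPM. The 6 testis genes summed to at most 1.20 CPM, with 6, 5, 6 and 5 of them at 0. The part of these tissues and of the germline in the values of polysome 3 was not tested. In bulk samples fewer cells of a type and less RNA per cell cannot be told apart.

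The 17 expressed genes covered all subunits of the pump other than subunit C. They were 9 genes of the V1 sector, 7 of the V0 sector and the gene of the accessory subunit AC45, and they held between 99.9% and 100% of all Vha counts in every library. Their share of all gene counts was 0.664% and 0.690% in inputs 1 and 3 and 0.790% and 0.605% in polysomes 1 and 3, so the libraries of the fractions overlapped. Most were abundant mRNAs, and 15 of the 17 lay above the median tested gene in mean input level. The median of the 17 genes was 198 TPM (a unit which divides by exon length and so allows levels of different genes to be compared), against 24.6 TPM for all genes tested. The 17 genes were kept by an input minimum that not all tested genes met, so the rule partly sets this contrast. The 3 tested Vha genes below the minimum lay at percentiles 4.39, 4.40 and 21.1 of all genes tested. Mean input levels spanned 175-fold, from 9.87 TPM for Vha36-3 to 1728 TPM for Vha16-1.

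**Figure D1:**
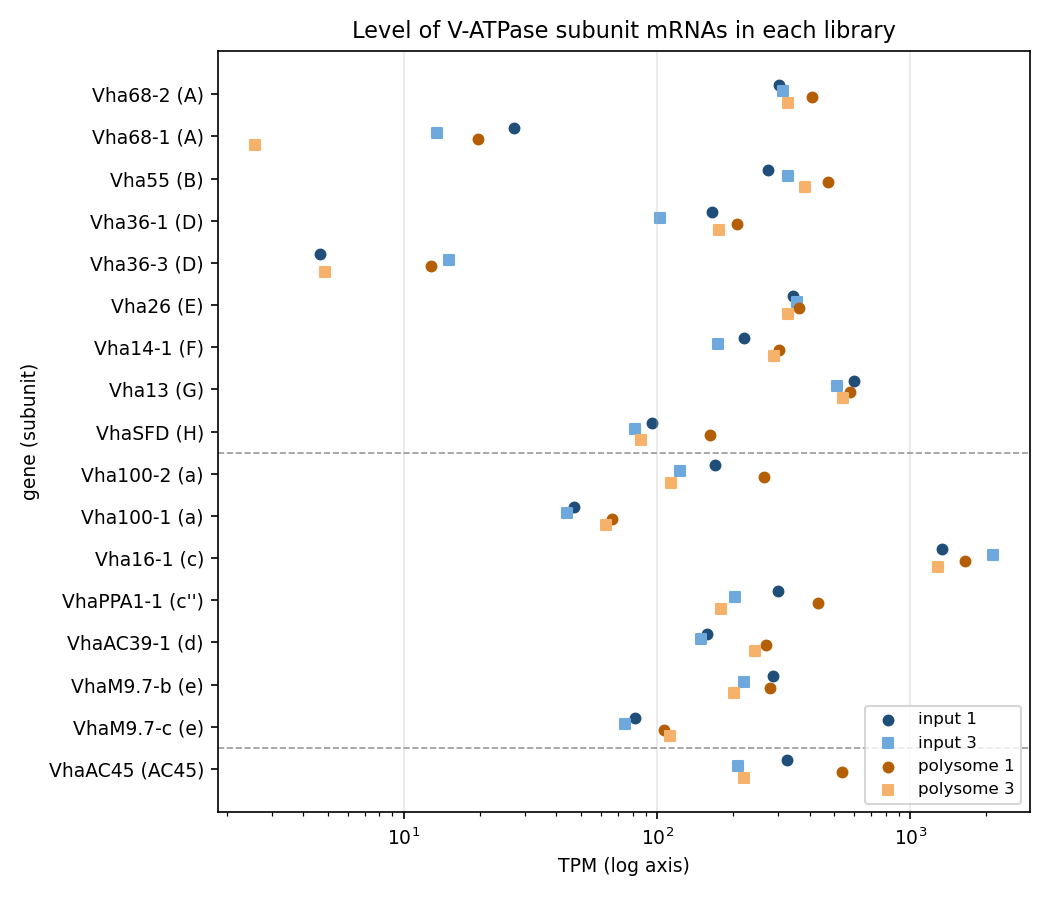
TPM of the 17 expressed Vha genes in each of the 4 libraries, on a log axis, with genes grouped by sector (V1 at the top, then V0, then the accessory subunit) and their subunit letter in brackets. Vha16-1 lies between 1287 and 2120 TPM in all libraries, while Vha68-1 and Vha36-3 lie at or below 27.2 TPM.

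In the V1 sector, subunits A and B form the ring that binds and hydrolyses ATP. Vha68-2, the main subunit A gene of these ovaries (2L:12974322-12978607 in BDGP6.54), was at 303 and 315 TPM in inputs 1 and 3 and at 409 and 330 TPM in polysomes 1 and 3. Vha55, the single subunit B gene (3R:12623762-12627829), was at 274 and 329 TPM in the inputs and at 474 and 383 TPM in the polysomes. Both genes were a little higher in both polysome libraries than in both inputs on this scale, as were 28.7% of all genes with a TPM. Like statements on TPM below are to be read beside that share. In CPM the polysomes of Vha68-2 overlapped its inputs. The input levels of Vha68-2 and Vha55 lay close to each other, with means of 309 and 302 TPM.

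Subunits D and F form the central stalk that turns inside the ring. Vha36-1, for subunit D (2R:15541435-15542498), was at 165 and 102 TPM in the inputs and at 206 and 176 TPM in the polysomes. Vha14-1, for subunit F (2R:15679426-15680084), was at 221 and 174 TPM in the inputs and at 303 and 290 TPM in the polysomes. For both stalk genes each polysome library exceeded each input library in TPM, beside 28.7% of all genes. In CPM this held for Vha14-1 only, and the libraries of Vha36-1 overlapped.

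Subunits E and G form the peripheral stalks that hold the ring still against the rotor. Vha26, for subunit E (3R:5591763-5595356), was at 343 and 356 TPM in the inputs and at 362 and 329 TPM in the polysomes. Vha13, for subunit G (3R:19643018-19644386), was at 601 and 514 TPM in the inputs and at 581 and 545 TPM in the polysomes, the highest V1 gene in every library. The polysome values of Vha13 lay inside the range of its inputs, whereas those of Vha26 lay just outside its inputs on either side. VhaSFD, for subunit H, a regulatory subunit that in yeast holds back ATP hydrolysis when V1 is detached (2L:16722883-16727826), was lower than the other lead V1 genes, at 95.1 and 81.7 TPM in the inputs and at 162 and 86.4 TPM in the polysomes.

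In the V0 sector the proteolipid ring carries the protons. Vha16-1, for its subunit c (2R:6625242-6633090), was at 1335 and 2120 TPM in inputs 1 and 3 and at 1650 and 1287 TPM in polysomes 1 and 3. It was the most abundant Vha mRNA in all 4 libraries, with a mean input level 3.10-fold that of Vha13, the next in order, and it lay at percentile 98.8 of all genes tested. It alone supplied 28.1% and 42.0% of the summed Vha TPM in inputs 1 and 3 and 26.9% and 28.2% in polysomes 1 and 3, so that input 3 stood above the other libraries. VhaPPA1-1, for the related ring subunit c″ (3R:14902330-14904061), was far lower, at 299 and 202 TPM in the inputs and at 430 and 179 TPM in the polysomes.

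Subunit d joins the ring to the central stalk, and subunit a provides the path for protons across the membrane. VhaAC39-1, for subunit d (X:3880748-3882967), was at 157 and 149 TPM in the inputs and at 270 and 245 TPM in the polysomes, with both polysomes above both inputs. Vha100-2, the leading subunit a gene (3R:18390323-18399169), was at 169 and 123 TPM in the inputs and at 265 and 113 TPM in the polysomes, whose libraries lay on either side of both inputs. Vha100-1, a subunit a paralog best known in fly neurons (3R:29131193-29137980), was at 46.8 and 43.9 TPM in the inputs and at 66.2 and 63.0 TPM in the polysomes, close between replicates and higher in the polysomes.

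The small membrane subunit e was supplied by a pair of genes. VhaM9.7-b (3L:21539862-21541215) was at 288 and 220 TPM in the inputs and at 280 and 201 TPM in the polysomes. VhaM9.7-c (3L:4186018-4186865) was at 81.5 and 74.6 TPM in the inputs and at 106 and 112 TPM in the polysomes. VhaM9.7-c was thus the lower of the pair in every library but lay above its inputs in both polysome libraries, while VhaM9.7-b overlapped. VhaAC45, for the accessory subunit that helps assemble the pump (2R:9207561-9209774), was at 326 and 208 TPM in the inputs and at 540 and 221 TPM in the polysomes, with polysome 1 above the other libraries.

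The order of mean input levels was Vha16-1, Vha13, Vha26, Vha68-2, Vha55, VhaAC45, VhaM9.7-b, VhaPPA1-1, Vha14-1, VhaAC39-1, Vha100-2, Vha36-1, VhaSFD, VhaM9.7-c, Vha100-1, Vha68-1 and Vha36-3. Vha16-1 stood clear of Vha13 in both inputs. Neighbours in this order overlapped between the inputs from Vha68-2 to Vha14-1, from VhaAC39-1 to Vha36-1 and for Vha68-1 and Vha36-3, so their order there was not resolved, and the other neighbours did not overlap. The lead V1 genes numbered 7 and ranged from 95.1 to 601 TPM in input 1 with a median of 274 TPM, and the 5 lead V0 genes had a median of 288 TPM there. In input 3 these medians were 315 and 202 TPM. These V0 medians include Vha16-1. Apart from it, the highest lead V0 gene was VhaPPA1-1 in input 1 (299 TPM) and VhaM9.7-b in input 3 (220 TPM). The lead V0 genes other than Vha16-1 thus lay inside the V1 range, but below Vha68-2, Vha26 and Vha13 in both inputs.

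Most subunits with several genes drew on 1 paralog in these ovaries. Across the 9 subunit families with several genes, the most abundant paralog held a median of 97.5% of the family's input TPM. Vha16-1 was the extreme case, since its 4 paralogs Vha16-2, Vha16-3, Vha16-4 and Vha16-5 had 0 counts in all libraries and it therefore held 100% throughout. Vha14-1 held 100% and 99.7% of its family in inputs 1 and 3, VhaAC45 held 100% and 99.4%, VhaAC39-1 held 98.9% and 100%, and VhaPPA1-1 held 96.8% and 98.1%. In the polysome libraries Vha14-1, VhaAC45 and VhaPPA1-1 held 100%.

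**Figure D2:**
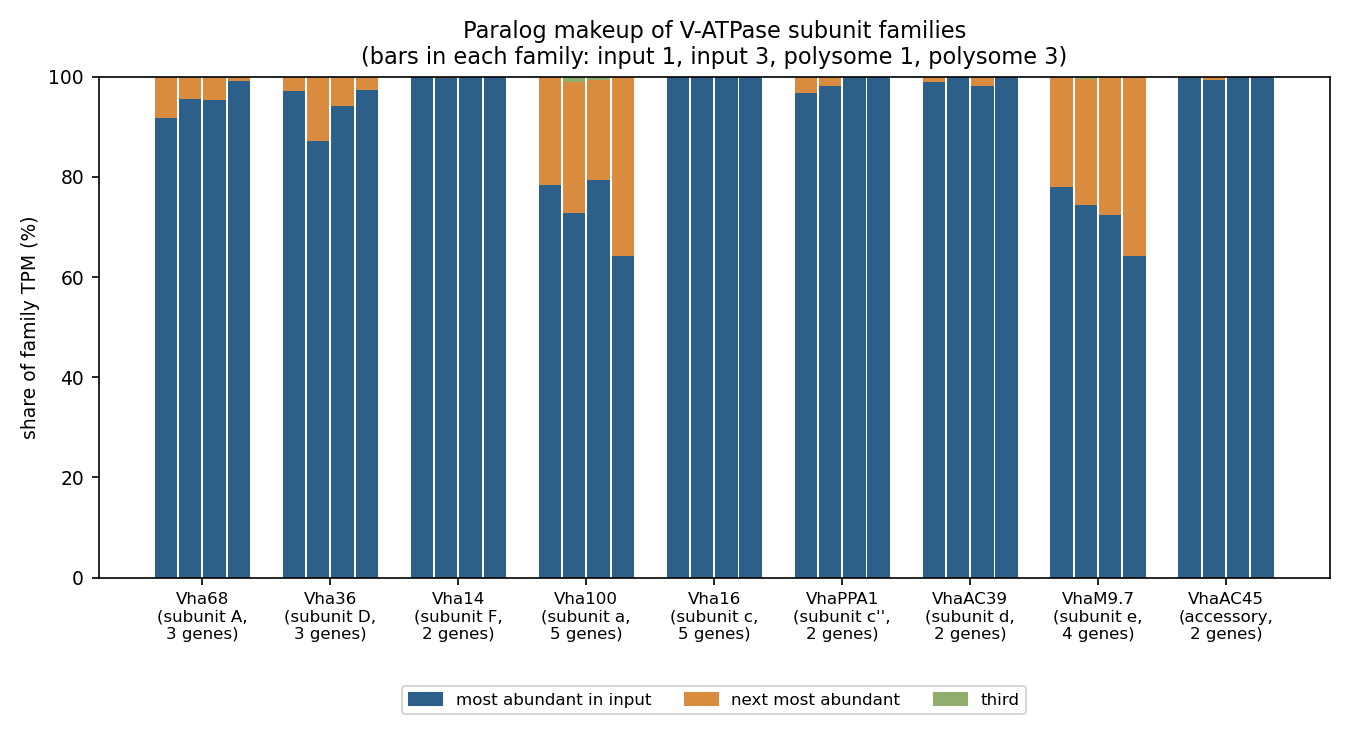
Share of each subunit family's summed TPM held by each of its genes, in percent, with 4 stacked bars per family in the order input 1, input 3, polysome 1 and polysome 3, and colours by rank of mean input level. The Vha100 and VhaM9.7 families are divided between a pair of genes, with lead shares from 64.1% to 79.4%, while the lead gene holds at least 87.2% elsewhere.

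The families of subunits a and e were shared. Vha100-2 held 78.3% and 72.9% of the subunit a TPM in inputs 1 and 3 and 79.4% and 64.3% in polysomes 1 and 3, with nearly all of the rest from Vha100-1. VhaM9.7-b held 77.9% and 74.4% of the subunit e TPM in the inputs and 72.5% and 64.1% in the polysomes. The VhaM9.7-b share was thus lower in both polysome libraries than in both inputs, with a mean difference of -7.87 percentage points (polysome minus input). With 2 libraries against 2 an exact two-sided permutation test cannot give a p under 0.333, and it gave 0.333 for the VhaM9.7 family (0.889 after Benjamini-Hochberg adjustment over the 4 families with 2 expressed genes). For the Vha100 family this difference was -3.75 points, with overlapping libraries and an exact permutation p of 1.

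The families of subunits A and D had a minor second gene. Vha68-1 (2L:13000770-13004107) was at 27.2 and 13.6 TPM in inputs 1 and 3 and at 19.6 and 2.59 TPM in polysomes 1 and 3, so that polysome 3 was the lowest library by far. Vha68-2 accordingly held 91.7% and 95.7% of the subunit A TPM in the inputs and 95.4% and 99.2% in the polysomes. Vha36-3 (X:2579091-2580560) was at 4.67 and 15.1 TPM in the inputs and at 12.8 and 4.90 TPM in the polysomes, and Vha36-1 held 97.3% and 87.2% of the subunit D TPM in the inputs and 94.2% and 97.3% in the polysomes. Exact permutation tests of the Vha68 and Vha36 shares each gave a p of 0.667 (0.889 adjusted). Reads that map to several places are not part of these counts, so paralogs with near-identical stretches could lose reads and their shares are uncertain to that extent.

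Of the 15 genes below the minimum, 8 had 0 counts in all 4 libraries. Besides the 4 Vha16 paralogs these were Vha100-3, Vha100-5, Vha36-2 and VhaM9.7-d. A count of 0 allows up to 3 counts, which is 0.282 and 0.244 CPM before TMM scaling in inputs 1 and 3 and 0.154 and 0.132 CPM in polysomes 1 and 3, and these limits cover counting error only. The other 7 genes had few and uneven counts, with 73 as the highest, and 3 of them had counts in 1 library only.

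The gene nearest to the minimum from below was VhaPPA1-2, with 45 and 18 counts in inputs 1 and 3 and 0 in both polysomes. The gene nearest from above was Vha36-3, with 41 and 136 counts in the inputs and 185 and 86 in the polysomes. Vha100-4 had 0 and 32 counts in the inputs and 73 and 0 in the polysomes, and VhaAC39-2 had 14 and 0 counts in the inputs and 71 and 0 in the polysomes. In both cases the counts came from 1 library of each fraction. Opposite-strand reads over Vha100-4, where the gene cona overlaps it, numbered 1069, and those over VhaPPA1-2, where CG3817 overlaps it, numbered 328, and neither are part of these counts. Vha68-3 had 1 and 12 counts in inputs 1 and 3 and 0 in the polysomes, and VhaM9.7-a, Vha14-2 and VhaAC45RP had 6, 6 and 15 counts in input 3 and none elsewhere.

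Several silent or weak paralogs lie next to a strongly expressed one. Vha68-3 starts 178 bases beyond the end of Vha68-2 on the same strand of 2L (2L:12978786-12981293), with no gene between them, yet Vha68-2 was at 303 and 315 TPM in the inputs against 0.0602 and 0.704 TPM for Vha68-3. Vha100-4 and Vha100-2 are 517 bases apart on the same strand of 3R, also with no gene between them, and Vha100-4 was at 0 and 1.68 TPM in the inputs against 169 and 123 TPM. VhaPPA1-2 and VhaPPA1-1 lie 2052 bases apart on the same strand of 3R with 1 gene between them, at 9.86 and 3.84 TPM against 299 and 202 TPM. The neighbours Vha16-3 and Vha16-2 on 3L, 985 bases apart, both had 0 counts. Adjacent position thus did not go with a like level for the first 3 pairs.

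The comparison of polysome with input asks which mRNAs were over- or under-represented on polysomes relative to the lysate. No Vha gene passed edgeR's quasi-likelihood test at an adjusted p of 0.05 (Benjamini-Hochberg over the 9038 genes), in which 0.0% of all genes were called, and with DESeq2 0.454% of all genes (41) and 0 Vha genes were called. With the replicate number as a block edgeR called 0.52% of all genes (47) and again 0 Vha genes. At an unadjusted p under 0.05 edgeR had 423 genes (4.68%) and 0 of the 17 Vha genes, and with the replicate block 529 genes and 1 of the 17. The fold change, as log2 of TMM-scaled counts, was above 0 for 10 of the 17 genes and below 0 for 7, beside 49.8% above 0 for all genes, and its median was 0.10 against 0.00 (-0.0032) for all genes. Of the 10, VhaPPA1-1 was at 0.0015 and fell below 0 with the size factors of DESeq2, and of the 7, Vha68-2 was at -0.0031 and was above 0 with upper-quartile factors. The spread of the 17 fold changes ran from -1.18 to 0.49, and the median standard error was 0.41.

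**Figure D3:**
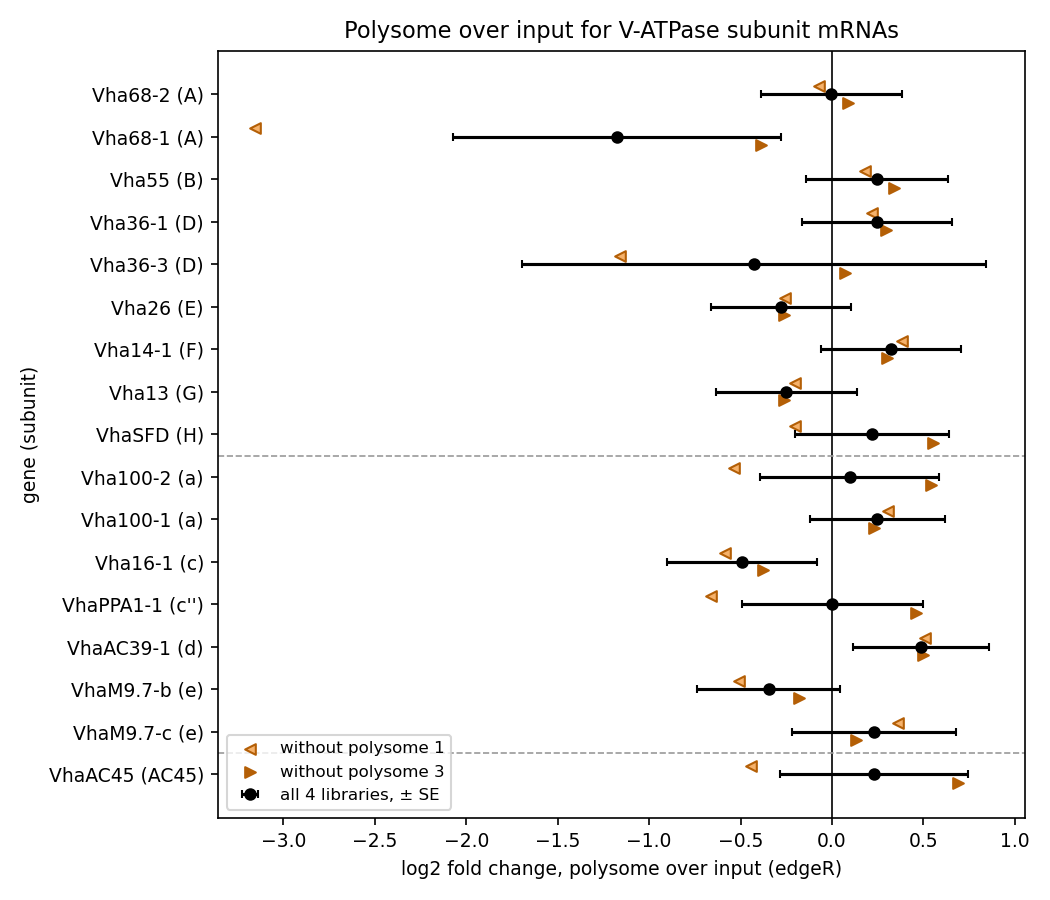
Log2 fold change of polysome over input for the 17 expressed Vha genes, grouped by sector, from edgeR with all 4 libraries (black points, bars are ± SE) and with polysome 1 or polysome 3 left out (triangles). The points lie between -1.18 and 0.49 and none was called, and the largest shift is that of Vha68-1, at -3.15 without polysome 1 and -0.39 without polysome 3.

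In CPM, which this test used, both polysome libraries lay above both inputs for 5 genes and below both for 3, together 47.1% of the 17 genes beside 35.3% of all genes (17.2% above and 18.1% below). The genes above were VhaAC39-1, Vha14-1, Vha100-1, Vha55 and VhaM9.7-c, and those below were Vha16-1, Vha26 and Vha13. VhaAC39-1 was at 186 and 171 CPM in inputs 1 and 3 and at 256 and 245 CPM in polysomes 1 and 3, a log2 fold change of 0.49 ± 0.37 (SE, edgeR adjusted p = 0.974). It had the highest fold change of the 17 genes and was higher in both replicates.

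Vha14-1 had 96.2 and 73.6 CPM in the inputs against 106 and 107 CPM in the polysomes, with a log2 fold change of 0.32 ± 0.38. Vha100-1 had 102 and 92.7 CPM in the inputs against 115 and 116 CPM in the polysomes, with a log2 fold change of 0.25 ± 0.37. Vha55 had 504 and 588 CPM in the inputs against 699 and 597 CPM in the polysomes, with a log2 fold change of 0.25 ± 0.39. These genes encode subunits of both sectors, and in each the step from the higher input to the lower polysome library was small.

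On the lower side, Vha16-1 had 2711 and 4184 CPM in the inputs against 2686 and 2212 CPM in the polysomes, with a log2 fold change of -0.49 ± 0.41 (edgeR adjusted p = 0.983). Vha26 had 663 and 667 CPM in the inputs against 560 and 537 CPM in the polysomes, with a log2 fold change of -0.28 ± 0.38. Vha13 had 374 and 311 CPM in the inputs against 290 and 287 CPM in the polysomes, with a log2 fold change of -0.25 ± 0.38. Vha26 was the most even of these across replicates, whereas for Vha16-1 polysome 1 lay only just below input 1 and input 3 was the high library.

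Vha68-1 had the most negative fold change of the 17 genes but also a wide error. It was at 48.1 and 23.3 CPM in inputs 1 and 3 and at 27.7 and 3.87 CPM in polysomes 1 and 3, with a log2 fold change of -1.18 ± 0.90 (edgeR adjusted p = 0.976). Polysome 1 lay between the inputs. With the replicate number as a block the log2 fold change was -1.68 (edgeR adjusted p = 0.700). Without polysome 1 the log2 fold change was -3.15 with an adjusted p of 0.00214, in a fit in which edgeR called 7.24% of all genes (695), 3.8% as lower in polysome, and in which the lone polysome library was assumed to vary like the inputs. It was the only one of the 17 genes called in any of the fits tried, and without polysome 3 its log2 fold change was -0.39.

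The remaining fold changes were small beside their errors. On the log2 scale they were 0.25 ± 0.41 for Vha36-1, 0.23 ± 0.51 for VhaAC45, 0.23 ± 0.45 for VhaM9.7-c, 0.22 ± 0.42 for VhaSFD and 0.10 ± 0.49 for Vha100-2. They were -0.35 ± 0.39 for VhaM9.7-b and -0.42 ± 1.27 for Vha36-3, whose libraries of the fractions overlapped. By sector, 4 of 9 V1 genes were above 0 and 5 below with a median of -0.0031, and 5 of 7 V0 genes were above 0 and 2 below with a median of 0.10. Without polysome 1 both medians were negative, at -0.20 for V1 and -0.51 for V0, and without polysome 3 both were positive, at 0.09 and 0.23.

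Within each replicate, the Vha genes did not show a common direction. In replicate 1 the CPM in polysome exceeded that in input for 11 of the 17 genes, with a median log2 ratio of 0.14, and in replicate 3 for 6 genes, with a median of -0.12. Over all genes tested the median ratio was 0.02 in replicate 1 and -0.10 in replicate 3, so the replicate 3 median of the Vha genes lay close to that of all genes. The sign was the same in both replicates for 10 genes and opposite for 7. Among the genes with opposite signs were Vha100-2 (0.33 and -0.31 in replicates 1 and 3), VhaPPA1-1 (0.21 and -0.38) and Vha36-3 (1.13 and -1.82). VhaAC39-1 (0.46 and 0.52) and VhaM9.7-b (-0.36 and -0.33) were close between replicates and were the only genes past 0.3 with the same sign in both apart from Vha68-1 (-0.80 and -2.59).

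Translational efficiency (TE) was also computed, as the log2 ratio of polysome to input TPM with 1 TPM added to each. Over all genes tested the median TE was 0.32 in replicate 1 and 0.086 in replicate 3, so values on this scale are to be read against those shifts. The median of the 17 Vha genes was 0.45 and 0.081, and their mean over replicates had a median of 0.27 against 0.20 for all genes. VhaAC39-1 had a TE of 0.77 and 0.71 in replicates 1 and 3, above the median gene in both. Vha16-1 had a TE of 0.31 and -0.72, and Vha68-1 of -0.46 and -2.02. In TPM 7 of the 17 genes had both polysome libraries above both inputs and 0 had both below, beside 28.7% and 10.4% of all genes with a TPM. Vha68-2 and Vha36-1 joined the 5 genes named by CPM and Vha16-1, Vha26 and Vha13 no longer separated.

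The libraries of a single fraction differed more for some Vha genes than for others. Between the polysome libraries the TPM differed 7.57-fold for Vha68-1, 2.61-fold for Vha36-3, 2.44-fold for VhaAC45, 2.41-fold for VhaPPA1-1, 2.34-fold for Vha100-2 and 1.87-fold for VhaSFD. All of these were lower in polysome 3, as were 16 of the 17 genes by TPM and 14 by CPM. The share of all genes lower in polysome 3 was not determined, so whether these counts are particular to the Vha genes is not known. The median of the 17 genes was 256 and 137 CPM in polysomes 1 and 3, against 36.9 and 38.6 CPM for all genes tested. Between the inputs the TPM differed 3.23-fold for Vha36-3, which was higher in input 3, and 2.01-fold for Vha68-1, which was lower there. Vha16-1 was 1.59-fold higher in input 3.

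**Figure D4:**
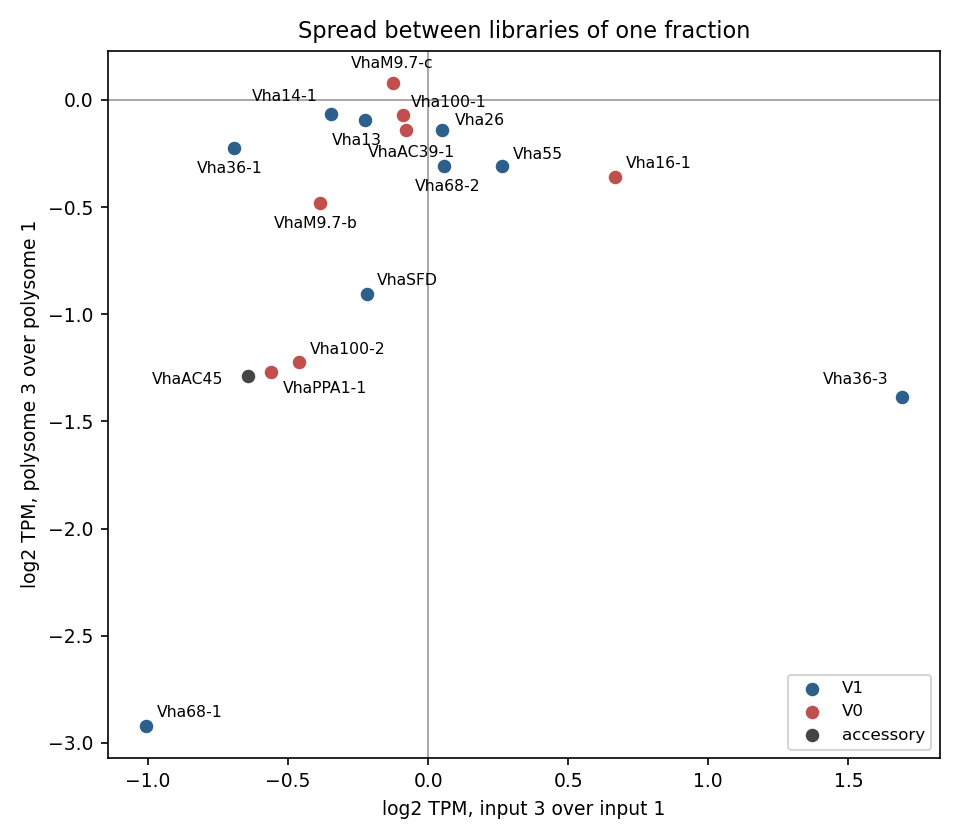
Log2 ratio of TPM between the replicates of a fraction for the 17 expressed Vha genes, with input 3 over input 1 on the horizontal axis and polysome 3 over polysome 1 on the vertical axis, coloured by sector. All genes but VhaM9.7-c lie below 0 on the vertical axis, and VhaAC45, VhaPPA1-1 and Vha100-2 lie together with lower values in replicate 3 of both fractions.

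VhaAC45, VhaPPA1-1 and Vha100-2 had like differences in both fractions. In CPM, VhaAC45 was at 433 and 269 in inputs 1 and 3 and at 575 and 249 in polysomes 1 and 3. VhaPPA1-1 had 267 and 176 CPM in the inputs against 308 and 135 CPM in the polysomes, and Vha100-2 had 359 and 254 CPM in the inputs against 451 and 204 CPM in the polysomes. They were among 9 of the 17 genes that were lower in replicate 3 than in replicate 1 in both fractions by CPM, a count without a share over all genes beside it. These genes were picked after their values were seen and were given no test.

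Partners of the pump and neighbouring pathways were examined as lists. Of 10 partners and regulators tested, 5 had a fold change above 0 and 5 below, none was called, and the median was -0.05 (from -0.49 without polysome 1 to 0.19 without input 1). RNASEK, an associated protein needed for endocytosis, was the most abundant of them at a mean input level of 382 TPM. It was at 224 and 351 CPM in inputs 1 and 3 and at 168 and 202 CPM in polysomes 1 and 3, with a log2 fold change of -0.63 ± 0.41. Rbcn-3A, which encodes a Rabconnectin subunit that regulates V-ATPase activity, had 114 and 152 CPM in the inputs against 79.5 and 80.3 CPM in the polysomes, with a log2 fold change of -0.74 ± 0.38 (edgeR adjusted p = 0.956). Both genes had lower values in both polysome libraries.

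Mitf, the fly TFEB-family transcription factor known to activate V-ATPase and lysosomal genes, was at 73.0 and 101 CPM in inputs 1 and 3 and at 55.3 and 194 CPM in polysomes 1 and 3, with a log2 fold change of 0.52 ± 0.58. Its polysome libraries lay on either side of both inputs, with polysome 3 the highest. CG14969, the partner list's gene with the smallest p among those above 0, had a log2 fold change of 0.43 ± 0.43.

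The Rag GTPases and the Ragulator complex sit on the lysosome beside the V-ATPase and relay amino acid levels to TORC1. Of 6 genes, 5 were tested, with 3 fold changes above 0, 2 below, no call and a median of 0.14 (from -0.47 without input 3, with 1 above 0 and 4 below, to 0.39 without input 1), and Lamtor2 had 0 counts. Lamtor1, the membrane anchor of Ragulator and the most abundant of the list at 148 TPM, had a log2 fold change of -0.53 ± 0.45, and Lamtor4 of 0.84 ± 0.56. Of 19 genes of lysosomal proteins, 17 were tested, with 9 above 0, 8 below, no call and a median of 0.04, which was -0.15 without polysome 1 and -0.03 without input 3. Lamp1, a lysosomal membrane protein and the most abundant at 1100 TPM, had 1159 and 1107 CPM in the inputs against 830 and 755 CPM in the polysomes, with a log2 fold change of -0.52 ± 0.38. Gba1b, a glucocerebrosidase gene near the limit of detection, had 0 and 0.276 CPM in the inputs against 2.79 and 2.35 CPM in the polysomes.

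The mitochondrial ATP synthase, a related rotary enzyme that runs in the direction of ATP synthesis, served as a comparison. Of its 17 genes, 14 were tested, with 9 fold changes above 0, 5 below, no call and a median of 0.33, which was 0.06 without polysome 3. ATPsynC, for its c ring, was its most abundant gene at 1960 TPM and had a log2 fold change of 0.17 ± 0.43, beside -0.49 ± 0.41 for Vha16-1, the c ring gene of the V-ATPase. ATPsyngamma, for its central stalk, was at 210 and 157 CPM in inputs 1 and 3 and at 299 and 419 CPM in polysomes 1 and 3, with a log2 fold change of 0.97 ± 0.41 (edgeR adjusted p = 0.956). ATPsynepsilonL was the opposite extreme at -1.64 ± 1.08. The difference between the lists was not tested.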

How the data were processed

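Gene counts of 4 libraries were analysed, 2 of input and 2 of polysome RNA. The authors made poly(A)-selected libraries with a directional kit after 13 min of fragmentation, mapped reads to dm6 with STAR 2.6.1c, as the submitters' processing notes give it, and deposited STAR's per-gene counts. Column 4 of these deposited counts was used, which held 95.3% to 97.1% of reads with a counted strand. Reads that named no gene (10.8% to 42.6% per library, multimapping reads included) were left out of library sizes and tests. Of 17699 gene identifiers, 17561 matched the annotation (Ensembl 115, BDGP6.54) and 138 did not, the latter with 1.05% to 1.19% of counts. Exon lengths of that annotation gave TPM.

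Polysome was tested against input with edgeR 4.0.16 in R 4.3.3 (filterByExpr, TMM, quasi-likelihood, Benjamini-Hochberg threshold 0.05). DESeq2 1.42.0, other size factors, other filters, unstranded counts, a replicate block, other pseudocounts, and leaving out each library were tried as alternatives. Shares were compared by exact permutation in SciPy 1.17.1. The edgeR code was tested on simulated data. TE follows the study's definition, each polysome library over the input of its number. As the study divides by the corresponding input lysate, libraries of equal number were taken to share a lysate, although their deviations had a correlation of only -0.04 over 9038 genes. Among the fits, only the replicate block used this pairing, and the fold changes given with a standard error did not. All Vha genes are named, with, per list, the most abundant gene and the smallest p in each direction, and Mitf. Other genes were chosen after their values were seen or describe a library. Members, lists and tests were chosen with earlier results of these data known. The nos gene was not analysed here.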

Additional observations from a re-analysis of the deposited data

Results flagged for a closer look

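For 6 Vha genes, reads lay on the strand opposite to the gene, in a column of counts kept out of the comparisons above, and passed the limit that a count of 0 allows (3 counts) in at least 1 library. Vha100-4 had 229 and 383 such counts in inputs 1 and 3 and 77 and 380 in polysomes 1 and 3, 1069 in all, against 0, 32, 73 and 0 on its own strand. The synaptonemal complex gene cona lies on the opposite strand and shares 47 exon bases with it. Vha100-1 had 52 and 100 opposite-strand counts in the inputs and 39 and 87 in the polysomes, 278 in all, and it shares 11 exon bases with Alg13 on the other strand. VhaPPA1-2 had 45 and 65 such counts in the inputs and 0 and 218 in the polysomes, 328 in all, against 45, 18, 0 and 0 on its own strand, and it shares 12 exon bases with CG3817 on the other strand. The part of these neighbours in the counts was not tested. Vha26 had 27 opposite-strand counts in input 3 and 15 in polysome 1, 42 in all, Vha16-4 had 37, all in polysome 1, and Vha16-5 had 5 and 11 in the inputs and 2 and 1 in the polysomes, 19 in all.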

How the results depend on the processing

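With 2 libraries per fraction and standard errors near 0.41 on the log2 scale, small changes could not be seen. Large changes were not called either, as the smallest adjusted p of edgeR over all genes was 0.956. Cp15, at a log2 fold change of 8.71 ± 2.73, was not called, but its rise rested on polysome 3 (0.710 and 2617 CPM in polysomes 1 and 3). Cp36 was at 5.25 and 1.66 CPM in inputs 1 and 3 and at 51.8 and 886 CPM in polysomes 1 and 3. At a log2 fold change of 7.09 ± 1.38 it was not called either. The absence of a call thus sets no limit on size by itself, and each fold change is to be read with its standard error. The genes called over the whole series numbered 0 with edgeR, 41 with DESeq2, 104 with no filter on low counts, 47 with the replicate block, and 0 to 695 when a library was left out (8 without input 1, 0 without input 3, 695 without polysome 1, 53 without polysome 3). The replicate block called 0 Vha genes and changed no other call of a Vha gene. Leaving out a library gave 0 to 1 Vha genes called, a median Vha log2 fold change of -0.20 to 0.31, and medians of -0.20 to 0.09 for V1 and -0.51 to 0.31 for V0 genes. The lead paralogs' median share was 98.7% from counts not divided by length and 97.3% to 98.1% with an input left out. TE had a median of 0.081 to 0.45 with a replicate left out. Counts of expressed genes were 16 to 18 under the other minimums. A longest-transcript length, chosen after seeing the data, left TE and shares as they were.

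Of 187 gene-level alternatives, 19 in 7 genes changed sign, none of them called either way. VhaPPA1-1, at 0.0015, was at -0.0070 with DESeq2 or its size factors, -7.7e-05 with no filter, -0.00079 with a 50-count filter, -0.015 with unstranded counts and -0.086 with the replicate block, and Vha68-2 was at 0.015 with upper-quartile factors. The other sign changes came from leaving out a library. The lowest and highest values were then -0.66 (without polysome 1) and 0.46 for VhaPPA1-1, -0.069 and 0.090 (without polysome 3) for Vha68-2, -0.54 (without polysome 1) and 0.54 for Vha100-2, -0.074 (without input 3) and 0.65 for Vha36-1, -1.16 and 0.62 (without input 3) for Vha36-3, -0.45 (without polysome 1) and 0.69 for VhaAC45, and -0.20 (without polysome 1) and 0.55 for VhaSFD. The cause of these changes was not tested.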

Other observations

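Some genes outside the Vha set, like VhaAC45, VhaPPA1-1 and Vha100-2, had lower values in replicate 3 than in replicate 1 of both fractions. They were picked after their values were seen, with no test. The V-ATPase partner ATP6AP2 was at 244 and 131 CPM in inputs 1 and 3 and at 270 and 121 CPM in polysomes 1 and 3. The lysosomal aspartic protease gene cathD had 555 and 274 CPM in the inputs against 579 and 305 CPM in the polysomes, and the cysteine protease gene CtsB had 380 and 178 CPM against 547 and 229 CPM. In contrast, CtsL1, a cysteine protease gene with 1393 and 1243 CPM in the inputs against 1229 and 1148 CPM in the polysomes, and LManII, an alpha-mannosidase gene with 176 and 157 CPM against 184 and 160 CPM, differed little between replicates.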
